A study of Mus musculus with 7 samples.

Results

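The genes studied here were 10 genes of MHC class I presentation, the route by which a cell shows peptides of its own proteins to cytotoxic T cells. They were taken by name, matched through their Entrez identifiers, as B2m, H2-K1, H2-D1, Tap1, Tap2, Tapbp, Psmb8, Psmb9, Nlrc5 and Erap1. All 10 were found among the 27179 genes counted in each library, and all 10 were among the 12303 genes that passed the filter on low counts and were tested. RNA-seq libraries came from 7 lymphoma lines, established from end-stage tumours of male C57BL/6 mice that carried the Eµ-Myc transgene, in which an immunoglobulin heavy chain enhancer drives Myc in B-lineage cells. There were 3 Smchd1 wild-type lines and 4 Smchd1 null lines, the latter labelled as homozygous for a gene trap and named in the study's methods as Smchd1 MD1/MD1. Lines are numbered as the labels number the replicates. Wild-type line 1 was the whole of batch 1 and was sequenced as single-end reads, and the other 6 libraries formed batch 2 with paired-end reads. The sources used here do not say that each line came from a separate mouse, so p-values measure the spread between these samples. The comparison asked which of these genes differ in level between lymphoma lines with and without Smchd1, which encodes a chromatin protein needed to keep certain genes silent.

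A class I molecule consists of a heavy chain, such as those made from H2-K1 and H2-D1, bound to beta-2-microglobulin, the light chain made from B2m. Its peptides are cut by the proteasome, in which the inducible subunits encoded by Psmb8 and Psmb9 can replace constitutive ones, and are pumped into the endoplasmic reticulum by the transporter that Tap1 and Tap2 form together. There the aminopeptidase made from Erap1 trims them and tapasin, made from Tapbp, helps to load them. Nlrc5 encodes the transactivator that acts at class I promoters together with factors bound to a set of promoter boxes. Loss of class I molecules is a known route by which tumours escape T cells.

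The promoters of B2m, H2-K1, H2-D1 and Tap1 are printed here because the levels of these genes varied widely across the lines and because the first 3 share an arrangement of letters. The sequences are from RefSeq for GRCm38.p6, the same build as mm10, and run from 250 bases before to 50 bases after an annotated start. Capitals mark the CCAAT box (CCAAT or its reverse complement), TGACG or its reverse complement (the core of a cyclic AMP response element), the interferon-stimulated response element core (GAAA, any 2 bases, GAAA) and a kappaB site, which is the first run of capitals in the H2-K1 and H2-D1 sequences. A gamma-activated site (TTC, any 3 bases, GAA) was also searched, and all searches covered both strands. In the Tap1 sequence the capitals are a CCAAT box and TGACG. The B2m window lay at chr2:122147437-122147736 on the plus strand, that of H2-K1 at chr17:34000298-34000597 on the minus strand, that of H2-D1 at chr17:35262844-35263143 on the plus strand and that of Tap1 at chr17:34187306-34187605 on the plus strand.
B2m: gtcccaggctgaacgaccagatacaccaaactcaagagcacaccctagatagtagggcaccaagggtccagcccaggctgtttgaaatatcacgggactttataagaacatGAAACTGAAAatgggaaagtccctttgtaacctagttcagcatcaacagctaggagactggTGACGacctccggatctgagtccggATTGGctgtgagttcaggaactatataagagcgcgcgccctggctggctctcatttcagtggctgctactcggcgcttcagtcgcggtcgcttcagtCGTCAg
H2-K1: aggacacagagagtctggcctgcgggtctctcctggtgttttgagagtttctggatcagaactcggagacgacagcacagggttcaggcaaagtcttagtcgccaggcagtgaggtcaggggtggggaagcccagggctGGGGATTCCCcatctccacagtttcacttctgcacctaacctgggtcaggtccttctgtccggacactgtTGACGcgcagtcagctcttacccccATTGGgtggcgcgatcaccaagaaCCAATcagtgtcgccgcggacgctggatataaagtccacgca
H2-D1: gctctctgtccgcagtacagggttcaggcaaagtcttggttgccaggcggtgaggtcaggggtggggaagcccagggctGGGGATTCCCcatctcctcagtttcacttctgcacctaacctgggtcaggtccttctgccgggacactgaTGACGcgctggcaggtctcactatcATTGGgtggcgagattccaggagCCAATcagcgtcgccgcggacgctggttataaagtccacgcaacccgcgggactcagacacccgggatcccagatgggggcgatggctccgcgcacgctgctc
Tap1: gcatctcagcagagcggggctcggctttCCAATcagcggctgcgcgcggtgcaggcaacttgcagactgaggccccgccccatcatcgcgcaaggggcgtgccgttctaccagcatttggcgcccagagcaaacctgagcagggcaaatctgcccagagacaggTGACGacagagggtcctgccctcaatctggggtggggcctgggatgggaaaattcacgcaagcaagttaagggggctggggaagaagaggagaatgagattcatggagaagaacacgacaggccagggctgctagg

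In B2m, H2-K1 and H2-D1 the letters TGACG were followed by ATTGG with exactly 20 bases between them. Of the 32851 promoters in the RefSeq table, 0.0944% held that pair at that distance and 0.743% held it at a distance of 10 to 30 bases. None of the other 5 members with a promoter in the table (Tap1, Tapbp, Psmb8, Psmb9 and Erap1) held the pair at 10 to 30 bases. The pair at that distance was not particular to the members. Of the other class I and class I-like heavy chain genes listed below, 14 had a promoter in the table, and H2-M3 and H2-Q7 held it. So did Psma1, a proteasome subunit gene, and Jak1, a signalling kinase gene. The kappaB search was for the exact letters capitalised in H2-K1 and H2-D1, with no variable positions. Those letters occurred in H2-K1 and H2-D1 and in 0.107% of all promoters. Other forms of the kappaB site were not searched for. A promoter without these exact letters, such as that of B2m, may therefore still hold a kappaB site, and the share applies to these letters alone. The interferon-stimulated element core occurred in B2m and Erap1 and in 3.44% of all promoters, and the gamma-activated site in Psmb8 and in 8.3%. TGACG on either strand occurred in 20.8% of promoters and the CCAAT box in 37.4%. Such matches describe the letters only. The Tap1 window overlapped that of Psmb9, which is read in the opposite direction, by 275 bases, and the starts of these genes lay 226 bases apart.

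Before the levels of the class I genes are described, several properties of the libraries bear on them. Total counts ranged from 3626853 in wild-type line 1 to 7519549 in Smchd1 null line 4, and 3 counts corresponded to between 0.399 and 0.827 CPM, the count scaled by the library total. Smchd1 itself was at 219 to 248 CPM in the wild-type lines and 22.6 to 28.7 CPM in the null lines, with no overlap (log2 fold change -3.16, SE 0.11, limma FDR 2.18e-05). Wild-type lines 2 and 3 resembled each other far more than any other pair of the same genotype, with a chi-square per degree of freedom of 3.96 over genes against 18.1 to 64.9 in the other pairs. They still differed beyond counting noise and were kept as 2 samples. B cell markers summed to between 2925 and 4805 CPM in all 7 lines. Smchd1 null line 4 stood apart in holding Cd22, which encodes a B cell surface protein, at 25.4 CPM against 180 to 341 CPM elsewhere, although its Ighm level, the immunoglobulin mu heavy chain, was 2368 CPM. T cell markers summed to at most 0.532 CPM, with Cd3e, Cd8a and Trac at 0 in every library, and natural killer cell markers to at most 2.53 CPM. Myeloid markers summed to between 0.296 and 27.8 CPM, of which Itgam made up 23.1 CPM in null line 2. The endothelial and stromal list reached 224 CPM in null line 4, where Pecam1 made up 219 CPM, while Kdr and Pdgfra were at 0 in every library.

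Levels differed widely between the genes. Per length, in RPKM, which divides CPM by the length of the gene in kilobases, and as the median of the 7 lines, B2m was the most abundant at 630, followed by H2-K1 at 169, H2-D1 at 155, Psmb8 at 121, Psmb9 at 61.8, Erap1 at 29.2, Tapbp at 20.8, Tap2 at 17.6, Tap1 at 15.8 and Nlrc5 at 7.66. B2m exceeded H2-K1, Psmb8 exceeded Psmb9, Psmb9 exceeded Erap1 and Tap1 exceeded Nlrc5 in 7 of 7 lines. H2-K1 exceeded H2-D1, Erap1 exceeded Tapbp and Tapbp exceeded Tap2 in 6 of 7 lines. Several neighbours were not separated beyond the spread of their ratio over the lines. The mean log2 ratio of Tapbp to Tap2 was 0.23 ± 0.39 (SD over 7 lines). The mean log2 ratio of H2-D1 to Psmb8 was -0.14 ± 1.06, with H2-D1 the higher in 4 of 7. That of Tap2 to Tap1 was 0.12 ± 0.72, with Tap2 the higher in 3 of 7, and that of Tap1 to Nlrc5 was 1.83 ± 1.89.

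The light chain gene B2m (chr2:122147687-122153082, GRCm38.p6 as for all positions) was at 328, 726 and 826 CPM in wild-type lines 1, 2 and 3 and at 541, 641, 405 and 218 CPM in null lines 1, 2, 3 and 4. Wild-type lines 2 and 3 held the most and null line 4 the least, and wild-type line 1 lay among the null lines, so that the groups overlapped. The log2 fold change of null over wild-type was -0.55 (SE 0.24, limma FDR 0.168).

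H2-K1 (chr17:33996012-34000619), a classical heavy chain, was at 86.3, 445 and 523 CPM in the wild-type lines and 332, 278, 133 and 116 CPM in the null lines. H2-D1 (chr17:35263094-35267497), the other classical heavy chain of this strain, was at 101, 335 and 371 CPM in the wild-type lines and 292, 269, 113 and 101 CPM in the null lines. Both genes ranked the 7 lines in the same order: wild-type line 1 lowest, then null lines 4, 3, 2 and 1, then wild-type lines 2 and 3. The wild-type group therefore held both ends of the range, and 6.06-fold separated the highest from the lowest line for H2-K1 against 3.68-fold for H2-D1. The log2 fold change was -0.95 for H2-K1 (SE 0.38, limma FDR 0.128). For H2-D1 it was -0.66 (SE 0.34, limma FDR 0.219). In RNA from whole cultures, a lower level in every cell and fewer cells expressing a gene cannot be told apart.

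Nlrc5 (chr8:94434335-94527272), the class I transactivator, varied most, with a 52.5-fold range. It was at 42.5, 90.7 and 87.4 CPM in the wild-type lines and 58.6, 53.2, 16.4 and 1.73 CPM in the null lines. The value in null line 4 rested on 13 reads, for which the exact Poisson 95% interval, covering counting error only, was 0.921 to 2.96 CPM. Null lines 3 and 4 lay below every wild-type line, while null lines 1 and 2 lay above wild-type line 1. The log2 fold change was -1.41 (SE 0.59, limma FDR 0.144). It was -2.14 with voom alone, and with 1 line left out it ran from -0.90 without wild-type line 2 to -2.32 without null line 2.

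**Figure D1:**
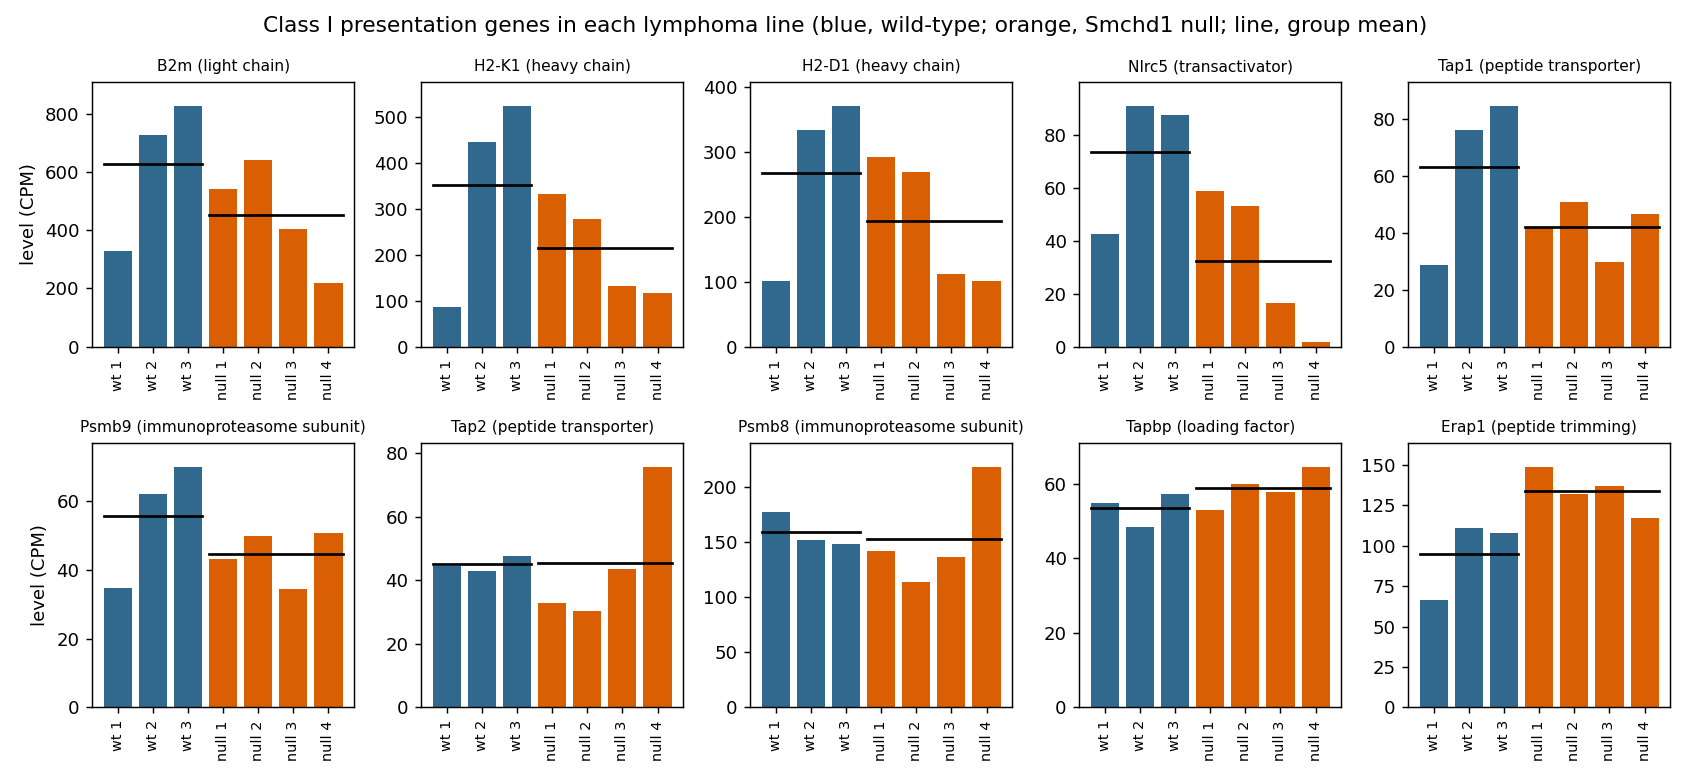
Level of each of the 10 genes in CPM (vertical axis from 0, with a scale of its own in each panel) in wild-type lines 1 to 3 (blue) and Smchd1 null lines 1 to 4 (orange), with black lines at the group means. Wild-type lines 2 and 3 are the highest 2 for B2m, H2-K1, H2-D1, Nlrc5, Tap1 and Psmb9, null line 4 is the highest for Tap2, Psmb8 and Tapbp, and the groups are separate for Erap1 alone.

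Of the transporter genes, Tap1 (chr17:34187556-34197225) was the only one of the 10 to pass the test. It was at 28.7, 76.1 and 84.6 CPM in the wild-type lines and 41.8, 50.9, 29.8 and 46.5 CPM in the null lines. Wild-type lines 2 and 3 lay above all null lines, and wild-type line 1 lay below them all. Tap1 was lower in null lines with a log2 fold change of -0.87 (SE 0.22, limma FDR 0.0432). The call was lost without wild-type line 2 (log2 fold change -0.27, limma FDR 0.976) and without wild-type line 3 (-0.19, limma FDR 0.974). Tap2 (chr17:34204479-34216321) was at 44.7, 43.0 and 47.8 CPM in the wild-type lines and 32.7, 30.4, 43.7 and 75.7 CPM in the null lines. The wild-type values were close together and lay inside the range of the null lines (log2 fold change -0.33, SE 0.18, limma FDR 0.246).

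The inducible proteasome subunit genes lie beside the transporter genes, in the order Psmb9, Tap1, Psmb8 and Tap2 along chromosome 17. Psmb9 (chr17:34182030-34187330) was at 34.7, 62.0 and 69.8 CPM in the wild-type lines and 42.9, 49.8, 34.4 and 50.5 CPM in the null lines. As with Tap1, wild-type lines 2 and 3 were above every null line while wild-type line 1 was near the bottom (log2 fold change -0.55, SE 0.16, limma FDR 0.0632). Psmb8 (chr17:34198195-34201454) was at 178, 152 and 148 CPM in the wild-type lines and 142, 114, 136 and 218 CPM in the null lines. Null lines 1, 2 and 3 were below the wild-type lines and null line 4 was above them (log2 fold change -0.20, SE 0.13, limma FDR 0.333).

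Tapbp (chr17:33919478-33929290) hardly varied, at 54.9, 48.4 and 57.3 CPM in the wild-type lines and 53.0, 60.1, 57.9 and 64.5 CPM in the null lines. Its coefficient of variation over the 7 lines was 9.13%, against 62.4% for H2-K1 and 66.5% for Nlrc5. The log2 fold change was 0.14 (SE 0.11, limma FDR 0.427). Erap1 (chr13:74639573-74693205) was at 66.4, 111 and 108 CPM in the wild-type lines and 149, 132, 137 and 117 CPM in the null lines. Every null line lay above every wild-type line, an arrangement that held for 6.35% of the genes tested. The log2 fold change of 0.34 did not pass the test (SE 0.12, limma FDR 0.0974). It was 0.51 with voom alone, 0.71 without wild-type line 2 and 0.67 without wild-type line 3.

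Together, 1 of the 10 genes was called in the comparison of genotypes, in the lower direction, where 11.9% of all tested genes were called in either direction, 6.85% in the lower and 5.06% in the higher direction. The log2 fold change was negative for 8 of the 10 and positive for Tapbp and Erap1. Their median was -0.55, against -0.006 over all tested genes, and 5 had an unadjusted p under 0.05. Such p-values were common over all tested genes in this fit. An unadjusted limma p of 0.0494 (Psma3, a proteasome subunit gene) corresponded to a limma FDR of 0.156. The share of all genes at an unadjusted p under 0.05 is not given, so the unadjusted counts here and below show no excess. With voom alone, without sample weights, 0 of 10 were called (1 at an unadjusted p under 0.05), where the share over all tested genes was 0.0975%. The quasi-likelihood test of edgeR called 0 of 10 (0 unadjusted) against 0.0975% of all genes, and DESeq2 called 0 of 10 (1 unadjusted) against 3.12%. Voom with block weights called 0 of 10 (3 unadjusted, limma) against 4.01%, and sample removal, without wild-type line 1 and null line 4, called 0 of 10 (6 unadjusted, limma) against 4.31%.

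The weights of the samples bear on these values. Wild-type lines 2 and 3 had weights of 3.78 and 3.06, wild-type line 1 had 0.246 and null line 4 had 0.249, so the wild-type level in the fit was close to that of lines 2 and 3. Within batch 2, that is without wild-type line 1, 3 of 10 genes were called lower, where 13.6% of all genes were called and 8.04% were lower. These were Tap1 (limma FDR 0.016), Psmb9 (log2 fold change -0.58, limma FDR 0.034) and H2-K1 (log2 fold change -1.04, limma FDR 0.0474). The wild-type group in this fit was lines 2 and 3 alone, the pair that resembled each other far more than the others. Its spread therefore rested on that pair. With voom alone on the same lines, 0 of 10 were called (3 unadjusted), where 29 of 12058 genes were called. Without wild-type line 2 or without wild-type line 3, 0 of 10 were called by limma (1 unadjusted in each), where 0.00825% and 0.00828% of all tested genes were called, so that these counts are at the general rate. In these fits the log2 fold changes were positive for 5 and negative for 5. B2m then had values of 0.02 and 0.09, H2-K1 of 0.17 and 0.27, and H2-D1 of 0.17 and 0.22. With lines 2 and 3 summed into 1 sample, the values were 0.03, 0.16 and 0.15 and 0 of 10 were called (1 unadjusted), against 0.00825% of all genes. With voom alone and every line included, the log2 fold changes of B2m, H2-K1 and H2-D1 were -0.48, -0.50 and -0.44. Without wild-type line 1 they were then -0.90, -1.33 and -1.04. They were smaller in size without wild-type line 2 and without wild-type line 3. In those fits they were -0.29 and -0.22 for B2m, -0.14 and -0.03 for H2-K1, and -0.16 and -0.10 for H2-D1.

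**Figure D2:**
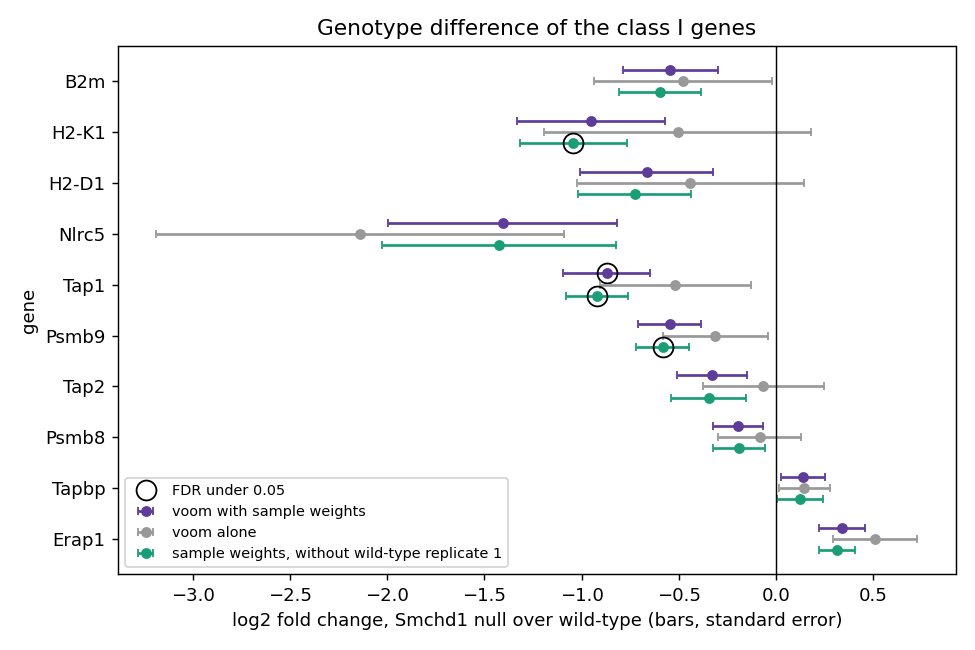
Log2 fold change of Smchd1 null over wild-type (horizontal axis) for each gene, with bars of 1 standard error, from voom with sample weights (purple), voom alone (grey) and voom with sample weights without wild-type line 1 (green). Black circles mark an FDR under 0.05: Tap1 in the first, none in the second, and H2-K1, Tap1 and Psmb9 in the third.

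Across the 7 lines, the genes fell into patterns that crossed genotype. The correlations that follow are of log2 CPM over 7 lines, which share genotype groups, depth and the close likeness of wild-type lines 2 and 3, and they are given as descriptions. H2-K1 and H2-D1 had a Pearson's r of 0.983, and 0.981 over 6 points with wild-type lines 2 and 3 averaged. B2m followed both, with r of 0.908 with H2-K1 and 0.928 with H2-D1. The divergent neighbours Tap1 and Psmb9 had an r of 0.993 over the 7 lines and 0.993 over the 6 points. Their transcripts share no 100-base stretch with any other gene. Psmb8 and Tap2, which follow Tap1 and Psmb9 on the chromosome, did not share this pattern. Tap1 and Tap2, the subunits of one transporter, had an r of 0.048. Psmb8 and Tap2 had an r of 0.878 with each other, which was 0.683 without null line 4.

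Null line 4 separated the genes most clearly. It held the lowest Nlrc5 and B2m of the 7 lines and, with wild-type line 1, the lowest H2-K1 and H2-D1. The same line held the highest Tap2, Psmb8 and Tapbp, and its Tap1 and Psmb9 differed from their means over the 7 lines by -0.06 and 0.05 log2 units. Wild-type line 1 differed from it in holding Nlrc5 at 42.5 CPM while its H2-K1, Tap1 and Erap1 were the lowest of all lines. Nlrc5 and H2-K1 had an r of 0.666 over the 7 lines, which ran from 0.613 to 0.901 with 1 line left out and was 0.615 over the 6 points. Nlrc5 and B2m had an r of 0.875, which was 0.740 without null line 4. Batch and read layout cannot be told apart from the line in wild-type line 1.

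**Figure D3:**
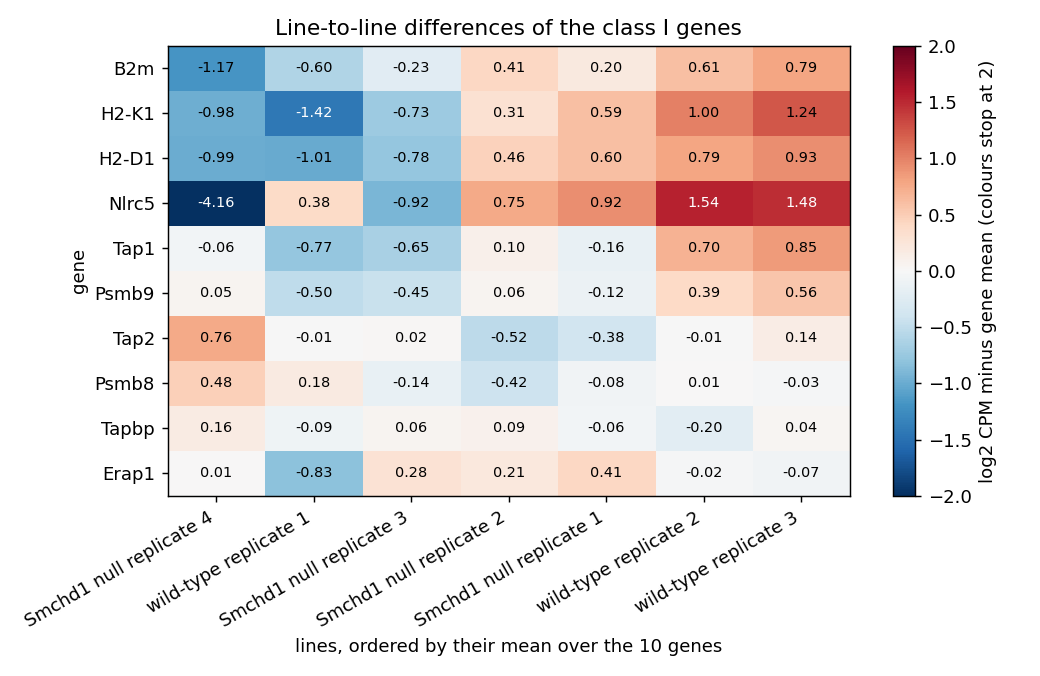
Log2 CPM of each gene (rows) in each line (columns, ordered by their mean over the 10 genes), minus the mean of that gene over the 7 lines. Values are printed in the cells and colours stop at 2 in either direction, so that Nlrc5 in null line 4 (-4.16) lies beyond the scale. B2m, H2-K1 and H2-D1 run from low on the left to high on the right, and Tap2 and Psmb8 are highest on the left, in null line 4.

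**Figure D4:**
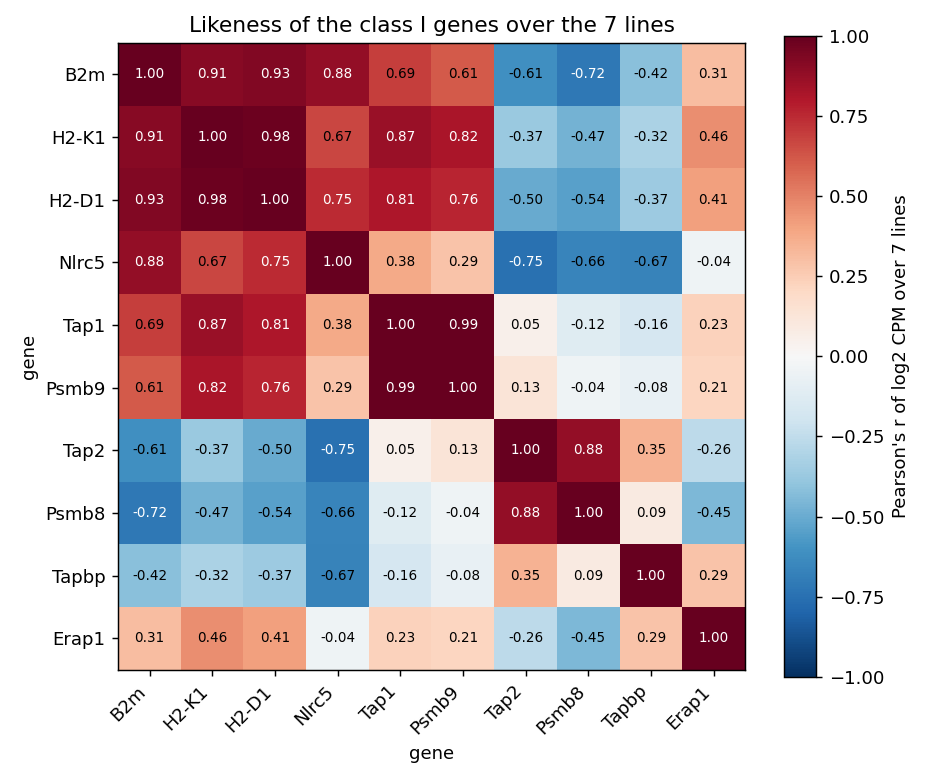
Pearson's r of log2 CPM over the 7 lines for each pair of the 10 genes, with values printed in the cells and a colour scale from -1 to 1. B2m, H2-K1, H2-D1 and Nlrc5 form a block of positive values, Tap1 and Psmb9 reach 0.993, and Tap2 and Psmb8 are alike each other and negative with B2m and Nlrc5.

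Summed over the 10 genes, the level was 964, 2089 and 2323 CPM in the wild-type lines and 1684, 1679, 1106 and 1010 CPM in the null lines. The mean pattern of the 10 genes, each centred on its own mean, was -0.47, 0.48 and 0.59 log2 units in the wild-type lines and 0.19, 0.15, -0.35 and -0.59 in the null lines. In null line 4 this mean was lowered most by Nlrc5, at -4.16 on 13 reads. Tap2, Psmb8 and Tapbp were highest there, at 0.76, 0.48 and 0.16. The genes below were compared with this mean, which is not a pattern shared by all 10 genes. Among the genes outside the set whose pattern was most like it over the 7 lines were Kif1c (r 0.999), a kinesin motor gene, Zbtb18 (0.989), a transcriptional repressor gene, Pank1 (0.988), a pantothenate kinase gene, and Hps6 (0.985). Kif1c ranged only from 57.3 to 93.1 CPM. Of the 12303 genes tested, 243 had an r of at least 0.9 with the pattern. None of these 4 named genes passed the test of genotype (limma FDR 0.0542 to 0.142).

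The ratio of an inducible proteasome subunit to the constitutive subunit it replaces did not pass the test of genotype for any of 3 pairs. On the log2 RPKM scale, Psmb8 to Psmb5 was 0.83 ± 0.32 (SD, n = 3) in wild-type and 0.61 ± 0.31 (SD, n = 4) in null lines (exact permutation test, two-sided, p = 0.343, adjusted 0.457). Psmb9 to Psmb6 was -0.59 ± 0.97 in wild-type and -1.02 ± 0.41 in null lines (exact permutation p = 0.457, adjusted 0.457). Psmb10 to Psmb7 was -2.17 ± 0.16 in wild-type and -1.81 ± 0.20 in null lines (exact permutation p = 0.0857, adjusted 0.257). The null minus wild-type difference of Psmb10 to Psmb7 was 0.36, larger than the SD of both groups, which did not hold for the other 2 pairs. The smallest p that 35 splits of the lines allow is 0.0286. After adjustment over 3 ratios, 1 ratio alone could therefore not pass the threshold. The test cannot decide whether a single ratio differed. Wild-type line 1 held the lowest Psmb9 to Psmb6 ratio, 0.307 on the linear scale, against 0.358 to 1.06 in the other lines.

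Other genes of peptide supply and loading did not move as 1 group. Of 16 tested, 2 rose and 1 fell, where 5.06% of all tested genes were called higher and 6.85% lower. The median log2 fold change was 0.11. Voom alone, edgeR, DESeq2, block weights and sample removal each called 0 of the 16. The shares over all tested genes in these fits were 0.0975%, 0.0975%, 3.12%, 4.01% and 4.31%. Pdia3, a disulphide isomerase of the loading complex, rose (log2 fold change 0.83, limma FDR 0.015), as did Psmb10, the remaining inducible proteasome subunit (0.48, limma FDR 0.0402). Ganab, a glucosidase subunit that trims the glycans of new glycoproteins, fell (log2 fold change -0.54, limma FDR 0.0382). The groups overlapped for these genes, because wild-type line 1 lay apart from wild-type lines 2 and 3. Wild-type line 1 held Pdia3 at 436 CPM, inside the null range of 358 to 530 CPM. Its Ganab level of 307 CPM lay inside the null range of 268 to 311 CPM. Its Psmb10 level of 74.2 CPM lay above every null line (54.6 to 71.6 CPM). Of the 14 genes of the standard 20S proteasome, 1 rose, namely Psma4 (0.51, limma FDR 0.0249), and the median was 0.14, where 5.06% of all tested genes were called higher. That median was negative with voom alone (-0.01), edgeR (-0.03) and DESeq2 (-0.03), without wild-type line 2 (-0.08) and without wild-type line 3 (-0.14). In wild-type line 1, Psma4 was at 131 CPM, inside the null range of 125 to 154 CPM. Psmb4, named after its values were seen, stood at 1644 CPM in wild-type line 1 against 275 to 467 CPM in the other 6 lines.

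Other class I and class I-like heavy chain genes had negative log2 fold changes, of which few passed the test. Of 24 listed, 11 were tested, 11 had a negative log2 fold change with a median of -0.88, and 2 fell past the test, where 6.85% of all tested genes were called lower. Without wild-type line 2 the median was -0.24 with 9 negative, and without wild-type line 3 it was -0.01 with 7 negative, and 0 were called in either fit (limma). The 2 that fell were Cd1d1, which presents lipids to natural killer T cells (log2 fold change -1.99, limma FDR 0.0202), and Mr1, which presents metabolites of microbial riboflavin synthesis (-1.45, limma FDR 0.0297). Cd1d1 was at 2.48, 8.04 and 9.38 CPM in the wild-type lines and 2.81, 1.61, 2.63 and 1.20 CPM in the null lines. Mr1 was at 5.24, 11.8 and 16.3 CPM in the wild-type lines and 4.00, 5.46, 4.17 and 8.91 CPM in the null lines. For both genes wild-type line 1 overlapped the null lines.

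H2-Q6 and H2-Q7, nonclassical heavy chain genes named after their values were seen, showed the widest line-to-line range. H2-Q6 was at 0.276, 100 and 91.3 CPM in the wild-type lines and 28.4, 24.6, 6.02 and 0.266 CPM in the null lines (limma FDR 0.215). H2-Q7 was at 0, 76.8 and 96.3 CPM in the wild-type lines and 23.5, 18.0, 0.463 and 0.133 CPM in the null lines (limma FDR 0.255). The lines that were low for H2-K1 and H2-D1, namely wild-type line 1 and null lines 3 and 4, were the lowest 3 for both H2-Q genes. Their counts are uncertain, since 10.8% of the 100-base stretches of the H2-Q6 transcript and 16.4% of those of H2-Q7 occur in another gene, against 0% for H2-K1 and 4.64% for H2-D1. When H2-K1, H2-D1 and 6 H2-Q genes were summed, the log2 fold change was -1.01 (limma FDR 0.116).

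Of 23 regulators of class I genes, comprising interferon receptors, their signalling proteins and promoter-binding factors, 0 were called by limma. An unadjusted p under 0.05 was seen for 9, which shows no excess, since such p-values were common over all tested genes. The median log2 fold change of the regulators was -0.25, which was -0.03 without wild-type line 2. Of the 2 with the highest mean level, Nfkb1, an NF-kappaB subunit gene, was at 103, 130 and 129 CPM in the wild-type lines and 105, 106, 169 and 310 CPM in the null lines (log2 fold change -0.03, limma FDR 0.937). Creb1, whose product binds cyclic AMP response elements, was at 134, 152 and 135 CPM in the wild-type lines and 135, 141, 130 and 106 CPM in the null lines (-0.10, limma FDR 0.532). Of 22 interferon-inducible genes, 12 were tested and 1 rose, where 5.06% of all tested genes were called higher. That gene was Irgm1, an immunity-related GTPase (log2 fold change 0.97, limma FDR 0.0323). The median log2 fold change of the 12 was 0.04. It was -0.02 without wild-type line 3 and -0.03 without null line 4, but 0.22 with voom alone, 0.42 with edgeR and 0.41 with DESeq2. These lists held 7 called genes of 76 tested, where the share over all tested genes was 11.9%. Limma called 0 of them without wild-type line 2 (4 at an unadjusted p under 0.05), wild-type line 3 (3 unadjusted), null line 1 (20 unadjusted) or null line 2 (25 unadjusted), and 11 within batch 2. Over all tested genes, the shares called in these 5 fits were 0.00825%, 0.00828%, 4.26%, 2.73% and 13.6%. Voom alone called 0 (6 unadjusted), edgeR 0 (8 unadjusted) and DESeq2 0 (9 unadjusted).

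Of the class I genes, 6 lie on chromosome 17 between the starts of H2-K1 and H2-D1, both included, so their genomic neighbours were examined. Of 84 other genes in that interval, 57 were tested, and 8.77% were called against 11.9% of all tested genes. The median log2 fold change of these 57 was 0.02, with 31 positive and 26 negative. The 5 called, named after their values were seen, were Slc39a7 (log2 fold change 0.33, limma FDR 0.0477) and Vars (0.31, limma FDR 0.0433), which rose, and Hspa1b, Hspa1a and Ddah2, which fell. Hspa1b, a heat shock protein gene, was at 11.6, 70.9 and 64.6 CPM in the wild-type lines and 6.96, 7.87, 4.17 and 2.13 CPM in the null lines (log2 fold change -3.42, limma FDR 0.0124). Without wild-type line 2, wild-type line 3 or null line 2, 0 of the neighbours were called (3, 3 and 14 at an unadjusted p under 0.05, limma), and without null line 3 or null line 4, 2 were called. The shares over all genes in these 5 fits were 0.00825%, 0.00828%, 2.73%, 8.37% and 11.8%, so that few calls were left anywhere in the first 2.

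**Figure D5:**
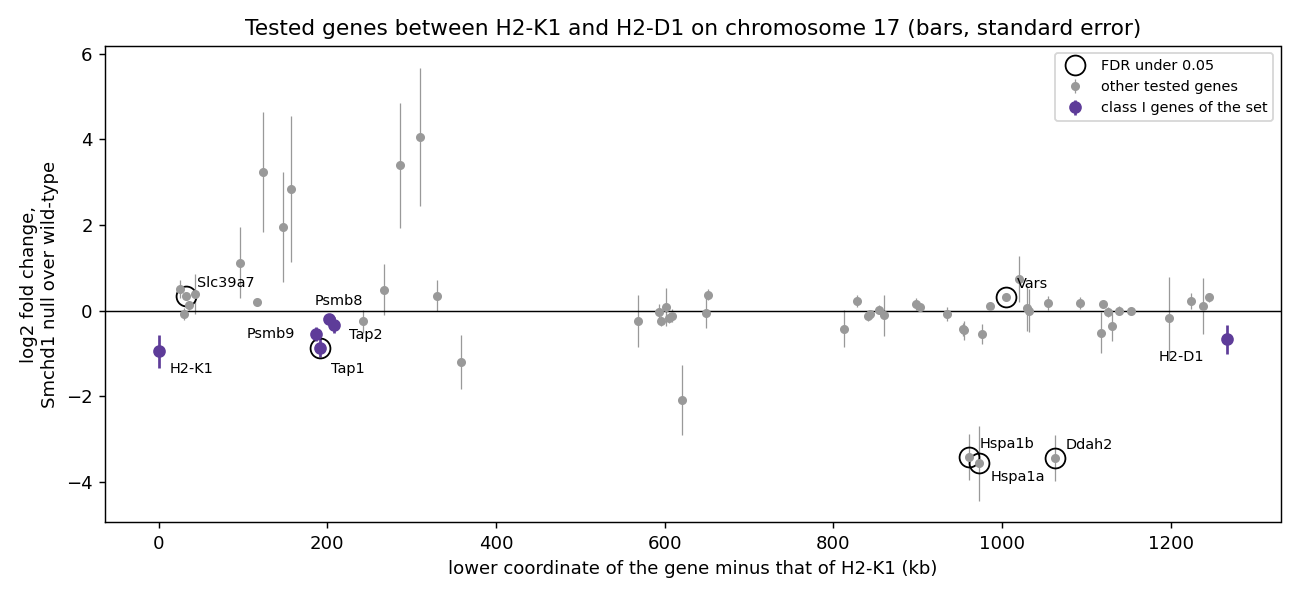
Log2 fold change of Smchd1 null over wild-type, with bars of 1 standard error (vertical axis), for tested genes from H2-K1 to H2-D1 against the distance of each gene's lower coordinate from that of H2-K1 in kb (horizontal axis). Genes of the set are purple and others grey, with black circles at an FDR under 0.05; the 6 purple points lie below 0 while 31 of the 57 grey points lie above it.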

How the data were processed

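Total RNA of each line was made into TruSeq libraries and sequenced. As the labels and the study's methods state, the authors used CASAVA 1.8.2, aligned reads to mm10 with Subread and summarised them per gene with featureCounts, and they deposited raw counts per Entrez gene with gene lengths, 1 file for each of the 7 samples. Their treatment of multi-mapping reads and strand is not given in the sources used here, so overlapping and near-identical genes are uncertain. The deposited counts were not normalised or pooled.

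Symbols and coordinates came from RefSeq GRCm38.p6, matched by Entrez identifier for 25275 genes. CPM was the count over the library total and RPKM also divided by gene length. Genes with at least 0.5 CPM in 3 samples were tested with TMM normalisation and voom with sample weights in limma 3.58.1 (edgeR 4.0.16, R 4.3.3), as in the study, with Benjamini-Hochberg FDR under 0.05. Alternatives were voom alone, block weights, sample removal, edgeR, DESeq2 1.42.0, other normalisation, filters and FDR, a replicate block, samples left out, and wild-type lines 2 and 3 summed. The script was tested on simulated data. Batch as a covariate would leave wild-type line 1 without influence, as leaving it out does.

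The genes and lists were chosen with earlier results of these data known. Named genes were the 10 members and Smchd1, from each list the genes past the test (up to 4, by p) or else the 2 with the highest mean CPM, and the 5 most alike, of which 1 is not reported here. Transcript stretches were compared within GENCODE M21. Replicate numbers did not pair the samples. RefSeq promoters were matched for 8 of the 10 members, and those of Tap2 and Nlrc5 were not analysed here.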

Additional observations from a re-analysis of the deposited data

How the results depend on the processing

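Calls changed with the weighting and with the lines included. Of the 10 class I genes, 0 were called with voom alone, block weights, sample removal, edgeR, DESeq2, no filter or lines 2 and 3 summed. With 10 counts required in every sample 2 were called, where 1533 of all 9522 genes tested were called. At an FDR under 0.1 it was 3, where 2797 of all 12303 genes were called. Both counts were near the general rate. With 1 line left out, 0 to 3 were called, where 1 to 1641 of all genes were called. With voom alone, 0 were called with lines 2 and 3 summed or any line left out, alternatives chosen after seeing the data. The replicate block called 0 of the 10 genes, 1 gene of the pathway lists and 2 neighbours, and 222 genes in all against 1466, and with voom alone 0 of the 10. Same-numbered lines had correlations of -0.147, 0.223 and -0.197, so the numbers did not pair the samples.

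Log2 fold changes of the opposite sign were seen without wild-type line 2 and without wild-type line 3 for B2m, H2-K1 and H2-D1. With 1 line left out, these ran from -0.873 to 0.0935 for B2m (0.0227 without line 2), from -1.41 to 0.266 for H2-K1 (0.171 without line 2) and from -1.16 to 0.224 for H2-D1 (0.168 without line 2). The same range was -2.32 to -0.90 for Nlrc5, -1.13 to -0.19 for Tap1, -0.72 to -0.10 for Psmb9, -0.43 to -0.06 for Tap2, -0.29 to -0.03 for Psmb8, 0.08 to 0.19 for Tapbp and 0.29 to 0.71 for Erap1. With lines 2 and 3 summed they were 0.0274, 0.156 and 0.148. With voom alone these 3 genes were negative in each of these cases. They were seen for Tap2 with edgeR (0.0174), DESeq2 (0.0181) and voom alone without null line 1 (0.0542) or null line 2 (0.0946), and for Psmb8 with voom alone without null line 2 (0.041). The call of Tap1 was lost in 23 alternatives and kept in 4, with a negative value in each. Pathway list calls, 7 in the fit reported, were 0 with voom alone, edgeR, DESeq2 or lines 2 and 3 summed, 2 with block weights, 3 with sample removal, and 0 to 11 with 1 line left out. Neighbour calls, 5 in the fit reported, were 0 with voom alone, edgeR or those lines summed, 3 with DESeq2, and 0 to 6 with 1 line left out. Over all genes, the count was 12 with voom alone, 12 with edgeR, 384 with DESeq2 and 1 to 1641 with 1 line left out. With 1 line left out or lines 2 and 3 summed, the exact test of the proteasome subunit ratios has too few splits to pass the threshold and says nothing about their stability. The cause of these differences was not tested.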

Other observations

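Of the MHC class II genes in the same interval of chromosome 17, some were highest in the 3 lines lowest for H2-K1 and H2-D1. Others were not, and those named here were chosen after their values were seen. H2-Aa, a class II alpha chain gene, was at 19.9, 0.984 and 1.47 CPM in wild-type lines 1, 2 and 3 and at 2.67, 12.5, 115 and 37.1 CPM in null lines 1, 2, 3 and 4. H2-Eb1, a class II beta chain gene, was at 31.4, 0.656 and 0.586 CPM in the wild-type lines and at 2.67, 10.1, 97.9 and 48.5 CPM in the null lines. For both genes, null lines 3 and 4 and wild-type line 1, the lowest 3 for H2-K1 and H2-D1, were the highest 3. H2-Eb2 and H2-Ob did not share this order and were lowest in null line 4, at 6.25 and 24.7 CPM. They were not ordered like H2-K1 and H2-D1 either. Their highest levels were in wild-type line 1 (40.0 and 60.9 CPM) and null line 3 (29.3 and 66.9 CPM). Neither H2-Aa nor H2-Eb1 passed the test of genotype (limma FDR 0.153 for H2-Aa and 0.128 for H2-Eb1). Ciita, the class II transactivator, was at 24.3, 0.328 and 0.879 CPM in the wild-type lines and 1.04, 6.59, 38.9 and 19.0 CPM in the null lines (limma FDR 0.145). Wild-type line 1, the lowest for H2-K1 and H2-D1, held the second highest Ciita.

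Of 15 values screened in the 4 null lines for 1 line far from the others (Dixon's test), 0 were flagged, where 0.75 would be by chance.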
